A study of Homo sapiens with 30 samples.

Results

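The genes described here encode the nuclear part of the oxidative phosphorylation machinery, and they were followed in G401 cells, a malignant rhabdoid tumour line that lacks the SWI/SNF subunit SNF5 (encoded by SMARCB1). Members were taken by symbol from the PRO-Seq table: names beginning with NDUF, UQCR or ATP5, names of COX followed by a digit, and SDHA, SDHB, SDHC, SDHD, CYC1 and CYCS, without pseudogenes. This gave 97 of the 20367 gene symbols in the table. By function they comprised 36 subunits of complex I, 4 of complex II, 9 of complex III, 11 of complex IV and 13 of complex V, cytochrome c, 4 assembly factors of complex I and 8 of complex IV, and 6 isoforms or paralogs of complex IV subunits. A further 2 symbols were read-through transcripts, and 3 were matched by name only (COX4NB, ATP5S and ATP5SL, whose current symbols are EMC8, DMAC2L and DMAC2). G401 cells carried a lentiviral, doxycycline-inducible construct for EGFP (the control), for OmoMYC, a dominant-negative MYC mutant, or for SNF5, and all groups were G418-selected and received 1 μg/ml doxycycline for 24 h. PRO-Seq, which maps active RNA polymerases, was available for 3 samples per construct, ATAC-Seq for 3 and MYC ChIP-Seq for 2. All cells therefore carried a transgene and received doxycycline, and all samples came from 1 cell line.

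Oxidative phosphorylation is the process by which mitochondria make most of their ATP. Complexes I and II feed electrons from NADH and succinate into the chain, complex III passes them to cytochrome c, complex IV reduces oxygen, and complex V (ATP synthase) uses the resulting proton gradient to make ATP. A few core subunits are encoded by mitochondrial DNA, while the subunits listed here are transcribed in the nucleus, so the nuclear genes must be expressed in balance with one another. NRF1, ETS-family factors such as GABPA, and YY1 are known regulators of many of these promoters, and MYC, which binds the E-box CACGTG with its partner MAX, is known to promote mitochondrial biogenesis.

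Promoter sequences (RefSeq, build GRCh38, 250 bases before to 50 after each start) could be matched to 81 of the 97 members, and 4 motifs were searched on both strands. The NRF1 motif (a palindrome of 10 bases, in capitals in the first set of windows) was found in 6 of the 81 member promoters (7.41%) and in 1.84% of 15355 other promoters. The YY1 motif (10 bases, in capitals in the second set) was found in 8 (9.88%, against 1.94%) and the ETS motif CCGGAAG in 24 (29.6%, against 14.4%). The E-box CACGTG was found in 8 (9.88%), close to its share of 9.05% in other promoters. None of these 4 motifs contains another. The NRF1 windows are shown because 2 of them belong to the members whose promoter-proximal signal passed the test, COX17 (higher with SNF5) and NDUFA8 (lower). A link between the motif and this signal was not tested. The motif is in capitals, and the genes are read 5′ to 3′ on their own strand:
ATP5C1: gggagcttcgGCGCATGCGCgctgaggcct
COX17: gggcctccttGCGCATGCGCtgaagggggc
COX18: gcaggcaggcGCGCATGCGCtttatgcccg
NDUFA8: gttgccggatGCGCATGCGCaggcgccgtg
NDUFB4: agagcacttcGCGCATGCGCatatcaccga
SDHD: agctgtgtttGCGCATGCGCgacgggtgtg

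The COX17 window lies at chr3:119677503-119677532 with the motif starting 116 bases before the start, and the NDUFA8 window at chr9:122159764-122159793 with the motif starting 4 bases before it (both GRCh38, minus strand). The YY1 motif sat at a more regular place than the others. In 7 of the 8 promoters it began 10 to 27 bases after the start, among them NDUFS4 (21 bases after) and SDHB (10 bases after), which moved in opposite directions with SNF5. Their windows, at chr5:53560650-53560679 (plus strand) and chr1:17054003-17054032 (minus strand), with the YY1 motif in capitals, read:
NDUFS4: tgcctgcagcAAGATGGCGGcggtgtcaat
SDHB: gtcaggagccAAGATGGCGGcggtggtcgc

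PRO-Seq gene body reads (from 1 kb after the start to the termination site) totalled 28444943 to 46957634 per sample. Promoter-proximal reads (the densest 50 bp within 500 bp of the start) totalled 518900 to 3386528, and this depth followed the replicate number: they came to 1.49–2.01% of the gene body total in replicate 1, 9.44–11.5% in replicate 2 and 4.4–5.41% in replicate 3. SMARCB1 gene body reads numbered 1 to 6 in the EGFP and 2 to 5 in the OmoMYC samples, against 2870, 4467 and 3440 with SNF5. Member genes took 0.402%, 0.414% and 0.399% of all gene body reads in EGFP replicates 1, 2 and 3. The share was 0.377%, 0.381% and 0.393% with OmoMYC, and 0.373%, 0.366% and 0.384% with SNF5. All 6 samples with OmoMYC or SNF5 were thus below the lowest EGFP sample, although OmoMYC replicate 3 was close to it. Counts were compared as shares of each library, so a change in the transcription of all genes would not be seen. In bulk samples, fewer transcribing cells and less transcription per cell cannot be told apart.

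In EGFP cells, members were transcribed above the typical gene. Gene body density, scaled gene body reads per kilobase with the library depth normalised as for RPKM, had a median of 3.49 over the 88 members tested (range 0.505 to 26.2), against 1.22 over all 15060 genes tested. The subunits with the highest density were NDUFB10 of complex I (26.2 ± 4.64, SD, n = 3), CYC1, the cytochrome c1 subunit of complex III (13.8 ± 3.81), COX5B of complex IV (9.96 ± 4.10), ATP5G3, a source of the c ring of ATP synthase (9.38 ± 0.359), and NDUFA4 (9.10 ± 3.62). Cytochrome c itself (CYCS) had 17.1 ± 1.99. The lowest subunits were all of complex I: NDUFS4 (1.02 ± 0.127), NDUFA12 (1.10 ± 0.0311), NDUFA5 (1.21 ± 0.218), NDUFB3 (1.41 ± 0.237) and NDUFA9 (1.55 ± 0.0379). Neighbours in this order, such as COX5B, ATP5G3 and NDUFA4, did not differ beyond their spread. By complex, the median density ran from 2.17 in complex II and 3.09 in complex I to 4.05 in complex IV, 4.78 in complex III and 5.62 in complex V.

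Some tissue-restricted isoforms were near the floor and others were not. COX4I2, COX7A1 and COX7B2, which replace general complex IV subunits in some tissues, had fewer than 10 gene body reads on average. They were not tested in gene bodies, while COX7A1 was tested in the promoter-proximal window. The hypoxia-inducible paralog NDUFA4L2 was the lowest member tested in gene bodies (0.505 ± 0.163). COX6B2, the testis isoform of COX6B, had densities of 2.46, 3.88 and 4.88 in EGFP replicates 1, 2 and 3, around the median of members. The table listed 6 members at 0 in both regions of all 9 samples: NDUFB11, NDUFA3, NDUFA6, COX7B, ATP5L and ATP5SL. As many as 1548 symbols of the table were at 0 everywhere, and ATAC-Seq peaks lay at the starts of these 6 members in 2 to 9 of the 9 ATAC-Seq samples, so these zeros are not read as absent transcription.

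The comparison of SNF5 with EGFP asks how transcription changes when the missing tumour suppressor is restored. Gene body reads of oxidative phosphorylation genes were lower more often than higher with SNF5. Of the 88 members tested, 20 were lower (22.7%) and 2 were higher (2.27%) at an adjusted p under 0.05 (edgeR quasi-likelihood test with the replicate number as a block, Benjamini-Hochberg over all genes). Over all 15060 genes, 16.5% were lower and 17.6% higher. The median log2 fold change was -0.15 over members and -0.03 over all genes, and 70 of the 88 members (79.5%) had a value below 0, against 53.4% of all genes. Gene body reads with SNF5 were below every EGFP sample in 16 members, or 18.2%, against 8.07% of all genes, and above every EGFP sample in 2, against 11% of all genes.

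**Figure D1:**
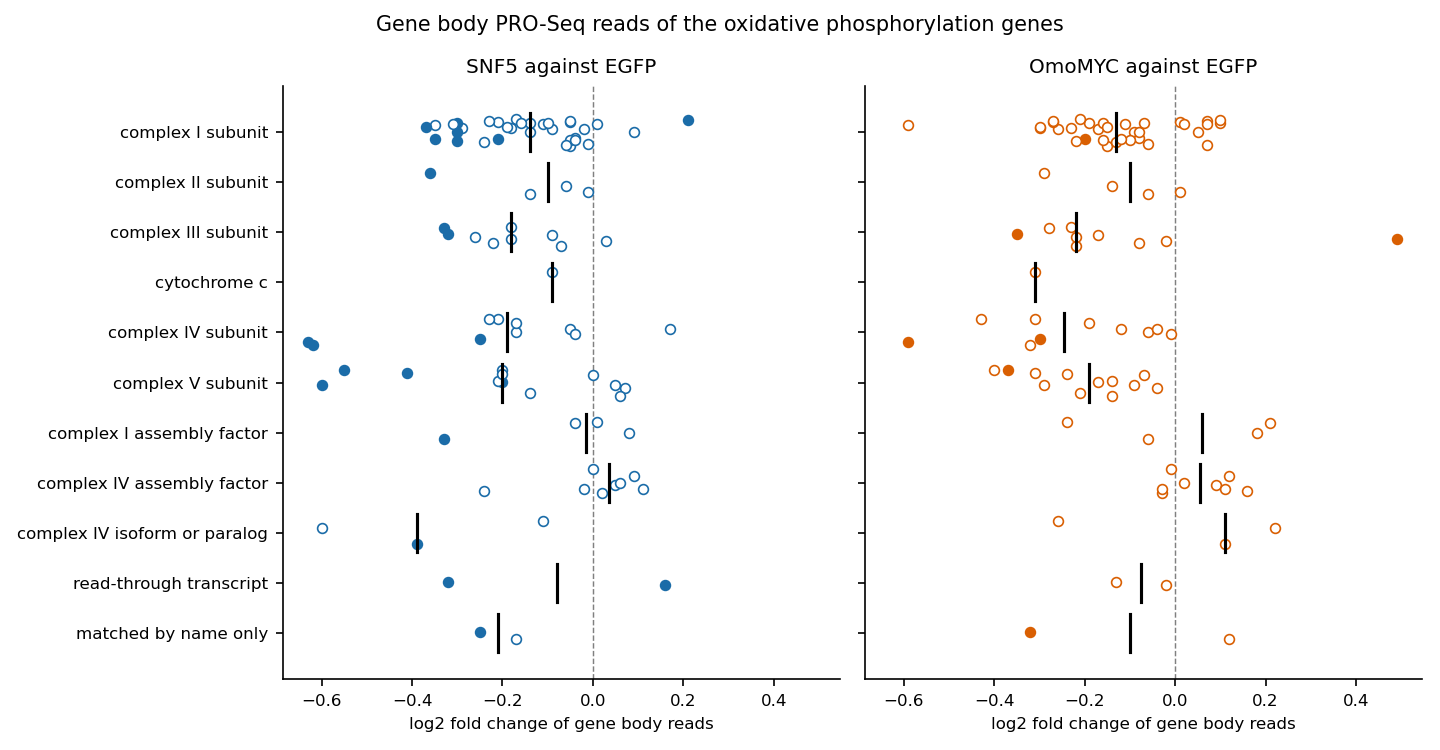
Log2 fold change of gene body reads against EGFP (horizontal axis) for each tested member with SNF5 (left) or OmoMYC (right), by role. Filled circles passed an adjusted p of 0.05, open circles did not, and vertical bars are medians of each role. With SNF5, 20 members are filled below 0 and 2 above it, and the complex IV assembly factors lie around 0.

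In complex V, 4 of 12 tested subunits fell, against 16.5% of all genes. ATP5G1, which like ATP5G2 encodes the c ring of ATP synthase, had 386, 739 and 604 scaled gene body reads (reads divided by the sample's scaling factor) in EGFP replicates 1, 2 and 3 and 261, 440 and 436 with SNF5. Reads were lower with SNF5 in each replicate, although the groups overlapped, and the log2 fold change was -0.60 ± 0.12 (SE, adjusted p = 0.00602, edgeR). ATP5D, the delta subunit of the F1 stalk, had 477, 576 and 535 in EGFP and 311, 348 and 429 with SNF5, with no overlap (-0.55 ± 0.11, adjusted p = 0.00681, edgeR). ATP5G2 had -0.41 and ATP5A1, the alpha subunit, -0.20, the latter at an adjusted p of 0.0498 by edgeR. ATP5G3, which encodes the same c-ring protein, had 1525, 1646 and 1588 reads in EGFP and 1543, 1760 and 1633 with SNF5 (0.05 ± 0.08).

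In complex IV, 3 of 10 subunits fell, against 16.5% of all genes. COX5B, a matrix-facing subunit, had 294, 624 and 358 reads in EGFP and 167, 355 and 296 with SNF5. It was lower in every replicate but the groups overlapped, and it had the lowest fold change of all members (-0.63 ± 0.14, adjusted p = 0.00897, edgeR), a fall by 35.2%. COX8A, with few reads over a gene body of 937 bp, had 129, 192 and 111 in EGFP and 81.6, 105 and 88.3 with SNF5, without overlap (-0.62 ± 0.19). COX5A was at -0.25 ± 0.07, with 1950, 1901 and 1974 reads in EGFP and 1642, 1542 and 1706 with SNF5. COX6B2 also fell (-0.39 ± 0.11, adjusted p = 0.0255, edgeR), while none of the 8 complex IV assembly factors passed, with values from -0.24 to 0.11.

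Complexes II and III contributed SDHB (1 of 4 tested) and UQCRH and CYC1 (2 of 9), against 16.5% of all genes lower. SDHB, the iron-sulphur subunit of succinate dehydrogenase, had 3162, 2862 and 2946 reads in EGFP and 2365, 1973 and 2712 with SNF5, all below EGFP (-0.36 ± 0.08, adjusted p = 0.00982, edgeR). The other 3 complex II genes had values of -0.01 to -0.14 and did not pass. UQCRH, the hinge protein of complex III, had 3501, 2824 and 3200 reads in EGFP and 2747, 2171 and 2715 with SNF5, again without overlap (-0.32 ± 0.08). CYC1 had -0.33 ± 0.10, with 713, 582 and 994 reads in EGFP and 581, 509 and 701 with SNF5, which overlapped.

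In complex I, 6 of 33 subunits fell and 1 rose, against 16.5% and 17.6% of all genes. Those that fell were the matrix-arm subunits NDUFS3 (-0.37) and NDUFS8 (-0.35) and the subunits NDUFA8 (-0.30), NDUFB2 (-0.30), NDUFB9 (-0.30) and NDUFA10 (-0.21). NDUFS8 had 1035, 974 and 1097 reads in EGFP and 901, 718 and 831 with SNF5, with no overlap. NDUFS4, an accessory subunit of the NADH-oxidising module, rose from 4494, 5321 and 4203 reads to 5199, 5542 and 5335 (0.21 ± 0.06, adjusted p = 0.0318, edgeR), with overlapping groups. Of the complex I assembly factors, NDUFAF4 fell (-0.33 ± 0.09). The remaining calls were the read-through transcripts ATP5J2-PTCD1 (-0.32) and NDUFC2-KCTD14 (0.16, adjusted p = 0.0490, edgeR), and COX4NB (-0.25), which is not a respiratory chain gene.

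**Figure D2:**
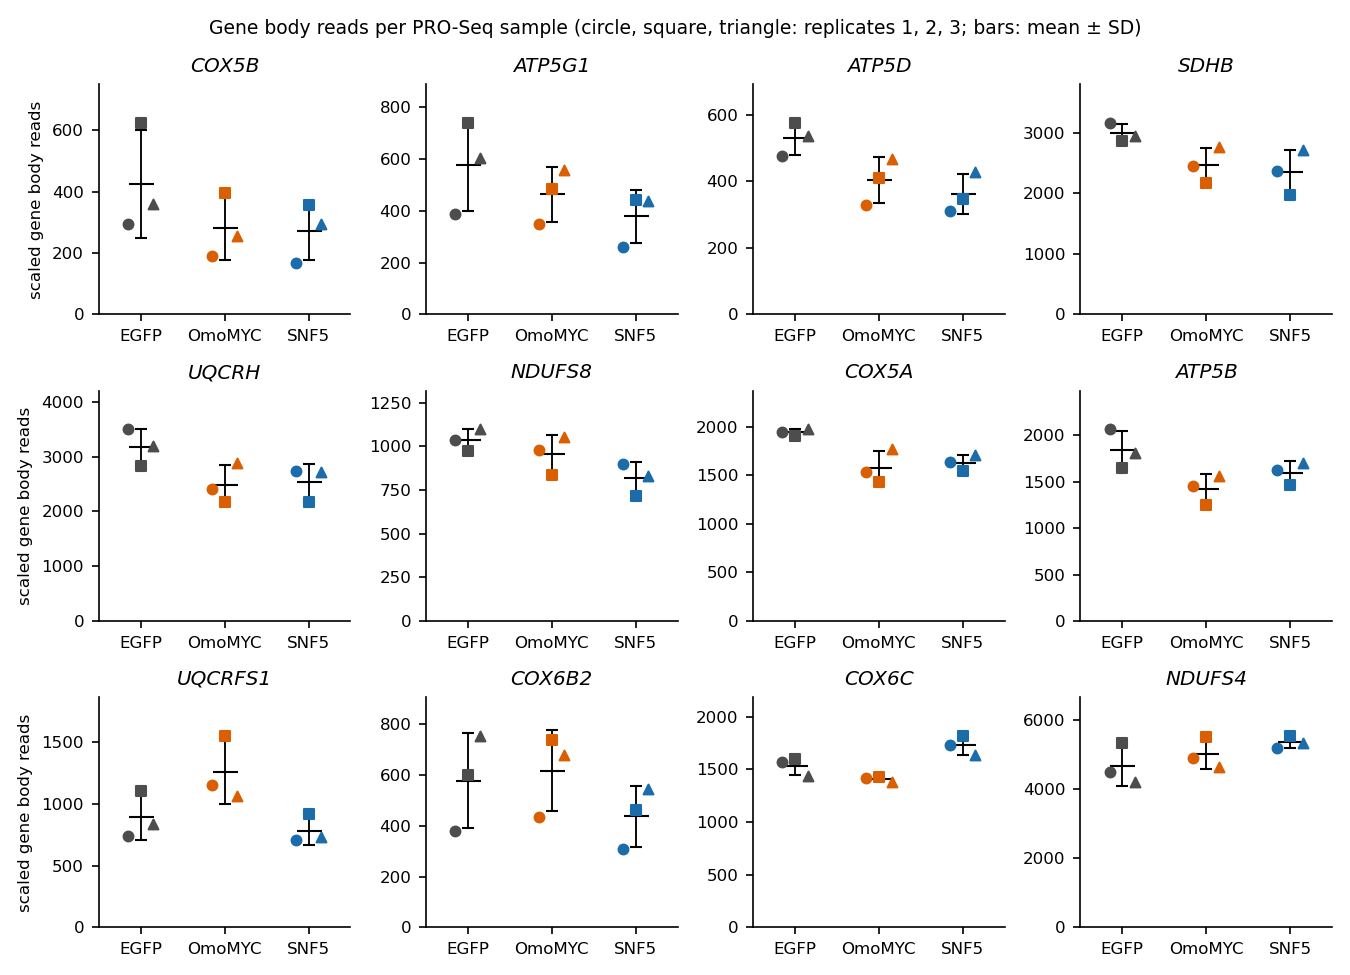
Scaled gene body reads (vertical axis, from 0) of 12 members in each PRO-Seq sample, by construct, with mean ± SD (n = 3). COX5B, ATP5G1, ATP5D, SDHB, UQCRH, NDUFS8 and COX5A lie lower with SNF5 in each replicate, UQCRFS1 is highest with OmoMYC, and COX6C is highest with SNF5.

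Replicate 3 carried less of the shift than the others. Within replicate 1, the median log2 ratio of SNF5 to EGFP over members was -0.17, with 77.3% of members lower. Replicate 2 gave -0.22 and 85.2%, and replicate 3 gave -0.05 and 62.5%. Over all genes the same medians were -0.02, -0.04 and -0.02, with 51.9%, 53.8% and 52% of genes lower. In 44 of the 88 members (50%) reads were lower in all 3 replicate pairs, against 31.5% of all genes. The calls depended on which replicate was left out and on the block: all 20 members kept a value below 0, but none stayed called without replicate 1 or without replicate 2 (0 of 88, when 441 and 308 of all genes were called lower), and 49 were called lower without replicate 3, when 4644 of 14939 genes were called lower and 3847 higher. Without the replicate block, 0 members were called in either direction, when 7 of all genes were called lower and 218 higher.

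**Figure D3:**
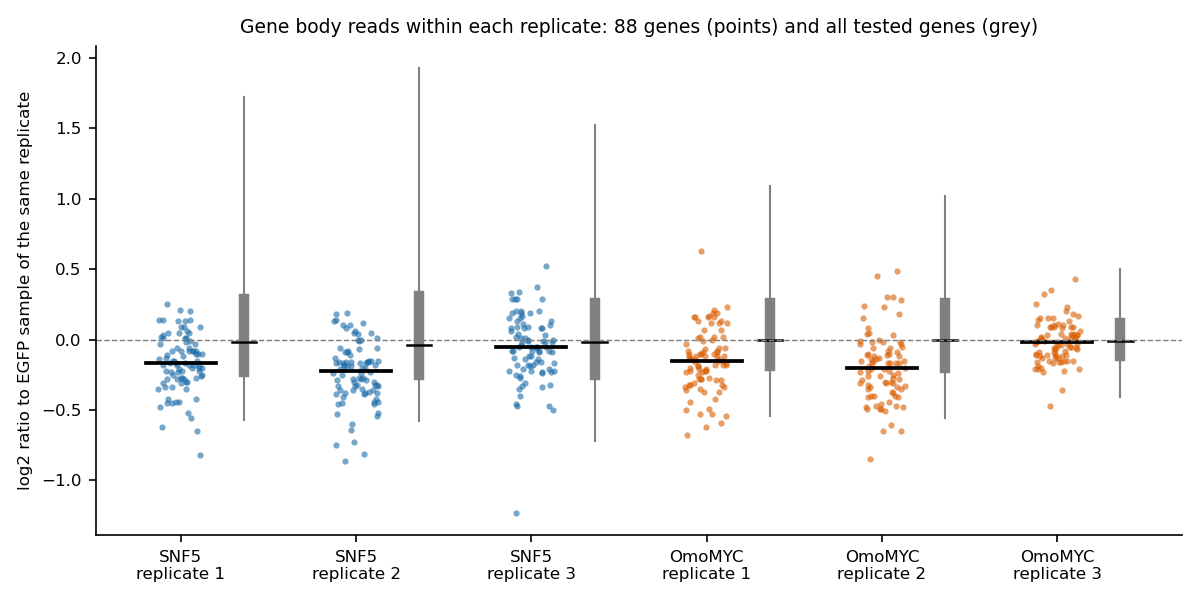
Log2 ratio of scaled gene body reads to the EGFP sample of the same replicate (vertical axis) for the 88 tested members (points, with their median as a bar) and for all 15060 tested genes (grey: thin line from the 5th to the 95th percentile, thick line the middle quartiles, tick the median). Member medians lie at -0.17, -0.22 and -0.05 with SNF5 and at -0.15, -0.20 and -0.02 with OmoMYC, while medians of all genes lie between -0.04 and 0.00.

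The comparison of OmoMYC with EGFP asks which genes respond to MYC inhibition. It shares its control samples with the comparison above, so the values are given side by side and not as independent evidence. Of the 88 members, 6 were lower (6.82%) and 1 was higher (1.14%) by edgeR, against 4.42% and 4.1% of all genes (8.53% in either direction). The median was -0.13 over members and 0.00 over all genes, and 77.3% of members were below 0, against 50% of all genes. Reads with OmoMYC lay below every EGFP sample in 14 members (15.9%, against 5.46% of all genes) and above every EGFP sample in 1 (1.14%, against 5.97%).

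The 6 lower members were COX5B (-0.59 ± 0.14, adjusted p = 0.0384), ATP5B (-0.37 ± 0.07, adjusted p = 0.0258), UQCRH (-0.35 ± 0.08), COX4NB (-0.32 ± 0.08), COX5A (-0.30 ± 0.07) and NDUFA10 (-0.20 ± 0.05, adjusted p = 0.0494), all by edgeR. ATP5B, the catalytic beta subunit of ATP synthase, had 2066, 1651 and 1815 reads in EGFP and 1458, 1253 and 1559 with OmoMYC, without overlap. Its SNF5 samples had 1632, 1465 and 1700 (-0.20 ± 0.07, adjusted p = 0.0548, edgeR). COX5A had 1530, 1431 and 1767 reads with OmoMYC, all below EGFP. NDUFA2, a small matrix-arm subunit of complex I, had the same fold change as COX5B but did not pass (-0.59 ± 0.16, adjusted p = 0.0540, edgeR), with 197, 299 and 184 reads in EGFP and 135, 165 and 143 with OmoMYC, without overlap. The Rieske iron-sulphur subunit of complex III, UQCRFS1, went the other way. It had 740, 1102 and 833 reads in EGFP and 1149, 1548 and 1064 with OmoMYC, higher in each replicate with overlapping groups (0.49 ± 0.08, adjusted p = 0.0214, edgeR).

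As with SNF5, the member median moved least in replicate 3. The member medians within replicates 1, 2 and 3 were -0.15, -0.20 and -0.02, against 0.00, 0.00 and -0.01 over all genes. Ratios of all genes were also least spread in replicate 3 with OmoMYC. Their 5th to 95th percentiles were -0.41 to 0.50 there, against -0.54 to 1.09 in replicate 1 and -0.56 to 1.02 in replicate 2. No member was called without replicate 1 or without replicate 2, when only 2 of all genes were called in either fit, and 43 were called without replicate 3 (42 lower), when 3650 of 14939 genes were called lower and 3067 higher. Without the block 0 members were called, with 1 of all genes. DESeq2 called 14 members (13 lower and 1 higher) and 13.8% of all genes.

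Setting SNF5 directly against OmoMYC asks whether both perturbations act alike. The median over members was 0.01 (all genes -0.01), with 5 of 88 lower (5.68%) and 2 higher (2.27%) with SNF5, against 7.38% and 11.5% of all genes (18.9% in either direction). UQCRFS1 stood furthest past the threshold: it had 703, 913 and 733 reads with SNF5, all below the OmoMYC samples (-0.67 ± 0.08, adjusted p = 0.000911, edgeR), and it was called without any 1 of the replicates (-0.74 to -0.62). Also lower with SNF5 were NDUFA4L2 (-0.83 ± 0.24), COX6B2 (-0.50 ± 0.11), the assembly factor COX14 (-0.40 ± 0.11) and ATP5J2-PTCD1 (-0.19 ± 0.06). NDUFA4L2 had 59.3, 63 and 53 reads with SNF5, 82.3, 102 and 133 with OmoMYC, and 73.5, 74.4 and 125 in EGFP, so that each SNF5 sample was below all the others. COX6C, a small membrane subunit of complex IV, was higher with SNF5 (1733, 1817 and 1632 reads) than with OmoMYC (1420, 1424 and 1383), with EGFP at 1569, 1600 and 1434 (0.29 ± 0.06, adjusted p = 0.0110, edgeR). The assembly factor NDUFAF2 was also higher (0.25 ± 0.07). Without the replicate block none of these 7 was called, and 1 of them (UQCRFS1) was called without replicate 1 and without replicate 2.

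At the promoter-proximal window, where polymerase pauses before elongation, few members moved. With SNF5, 1 of 88 members was higher and 1 lower (1.14% each, against 2.62% and 1.59% of 11241 genes, or 4.22% in either direction). COX17, the copper chaperone for complex IV, had 11.9, 55.5 and 21 scaled reads in EGFP replicates 1, 2 and 3 and 29.7, 154 and 31.1 with SNF5, higher in each replicate with overlapping groups (1.17 ± 0.29, adjusted p = 0.0164, edgeR). NDUFA8 had 146, 2180 and 1354 in EGFP and 113, 1253 and 658 with SNF5, lower in each replicate with overlapping groups (-0.78 ± 0.23, adjusted p = 0.0450, edgeR). The wide spread within a group follows the promoter-proximal depth of the replicates. Both calls were lost without replicate 2 (0 members called) and without the block. The NDUFA8 call was also lost without replicate 3 (-0.63, adjusted p = 0.116, edgeR) and with only SNF5 and EGFP in the fit (-0.76, adjusted p = 0.0557, edgeR).

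With OmoMYC no member passed in this window by edgeR or by DESeq2, against 0.151% of all genes called lower and 1.57% higher (1.72% in either direction). At an unadjusted p under 0.05, 10 members were higher and 2 lower of 88, against 1730 of 11241 genes in either direction. COX17 had the highest value (0.98 ± 0.29, adjusted p = 0.0787, edgeR), with 13, 153 and 36.2 reads. The median of members (0.13) equalled that of all genes (0.13). When the scaling factors were taken from promoter-proximal counts, both medians became -0.03, and NDUFAF3 and SDHB were called lower.

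The pausing index, the density in the promoter-proximal window over that in the gene body, was tested as the difference between the changes of both regions. With SNF5, 6 of 87 members were higher and 4 lower at an unadjusted p under 0.05 by edgeR. Over all genes, 2079 of 11171 passed that threshold in either direction. At an adjusted p under 0.05, the index rose in 4 of 87 members with SNF5 (4.6%, against 2.08% of 11171 genes). It fell in 0 (against 1.58%, or 3.65% in either direction). The 4 that rose were ATP5A1 (log2 change 1.21 ± 0.31, adjusted p = 0.0169), COX17 (1.04 ± 0.32, adjusted p = 0.0495), NDUFA2 (0.99 ± 0.26, adjusted p = 0.0209) and NDUFB9 (0.95 ± 0.25, adjusted p = 0.0195), by edgeR. NDUFA2 had pausing indices of 2.81, 16.8 and 18.7 in EGFP replicates 1, 2 and 3, 7.51, 44.2 and 30.5 with OmoMYC, and 4.63, 41.7 and 33.5 with SNF5. It rose in each replicate with both constructs, and was the only member called with OmoMYC (1.13 ± 0.27, adjusted p = 0.0144, edgeR), or 1.15% of members, against 1.94% of all genes higher and 0.0716% lower. NDUFB9 had 9.34, 13.6 and 11.6 in EGFP and 13.3, 46.2 and 16.5 with SNF5.

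The promoter-proximal counts behind ATP5A1 were low, at 4.32, 39.1 and 25.1 scaled reads in EGFP and 14.8, 104 and 29.4 with SNF5. This test found few true changes: it recovered 13% of simulated 2-fold changes, and 23.5% of its 34 calls there were false. By DESeq2, without the block and without replicate 2, 0 members were called with either construct. Without replicate 3, 11 of 87 members had a higher index with OmoMYC, against 943 of 11063 genes. The median change of members with OmoMYC was 0.21 (all genes 0.14), and it became 0.05 (all genes -0.01) with scaling from promoter-proximal counts.

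**Figure D4:**
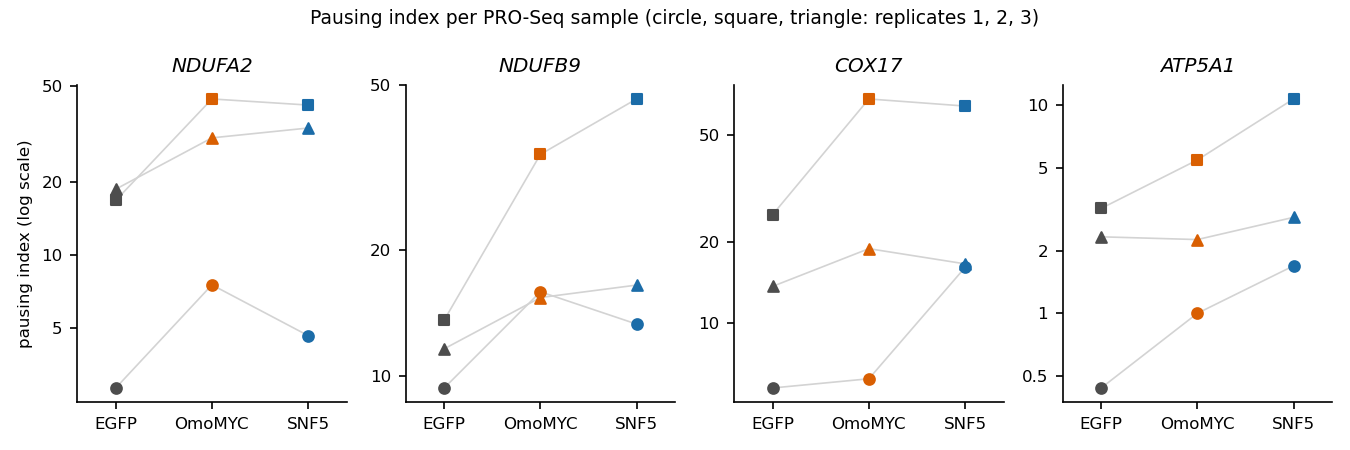
Pausing index (vertical axis, log scale, its range set for each gene) of the 4 members called with SNF5, in each PRO-Seq sample. Grey lines join samples of the same replicate number. NDUFA2 goes from 2.81, 16.8 and 18.7 in EGFP to 4.63, 41.7 and 33.5 with SNF5, and all 4 genes are higher with SNF5 in each replicate.

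MYC ChIP-Seq peaks were read within 1 kb of member starts (hg19). The EGFP samples differed in depth of peak calling, with 940 peaks in replicate 1 and 5396 in replicate 2. Accordingly 8 members (8.25%) had a peak in replicate 1 and 40 (41.2%, exact binomial 95% interval 31.3–51.7%) in replicate 2, against 4.33% and 23% of the 20270 other genes. The other genes included symbols with few or no PRO-Seq reads, while most members were transcribed. Among genes tested in gene bodies, 39 of 88 members and 4509 of 15060 genes had a replicate 2 peak. Peaks in both samples were found at 7 members (7.22%, interval 2.95–14.3%), against 4.28% (4.01–4.57%). The intervals cover counting error only. With SNF5, 1 member (NDUFS1) kept a called peak in replicate 1 and 0 in replicate 2, against 0.612% and 0.0789% of other genes, and no member had a peak in the OmoMYC samples, whose lists hold 1 line each, with "fake" in its peak name. The peak lists contain no read counts, so a weaker signal and no signal cannot be told apart.

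The 7 members were NDUFS1, NDUFA7, ATP5F1, NDUFAF2, NDUFAF4, COX18 and ATP5S. NDUFS1, the largest subunit of complex I, had the strongest peaks, with a fold over local background of 8.64 in EGFP replicate 1, 12.6 in replicate 2 and 6.03 in SNF5 replicate 1. Its EGFP summits, however, lay 624 and 542 bp upstream of its start and 209 and 127 bp from the start of EEF1B2, a translation elongation factor gene. Likewise the summits at NDUFA7 lay upstream of it and inside RPS28, a ribosomal protein gene, and those at ATP5F1 (subunit b of ATP synthase) were nearest to the WDR77 start, in an exon of ATP5F1. The summits at NDUFAF4 (coding exon and intron), NDUFAF2 (coding exon), COX18 (upstream) and ATP5S (UTR) were nearest to the member itself. An opposite-strand start lay within 1 kb in 31 of 97 members (32%), against 13.4% of other genes.

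A CACGTG lay within 100 bp of a summit in 5 of these 7 members. At NDUFAF4 this held for the summit of EGFP replicate 1 but not for that of replicate 2. The windows are shown because they hold the binding motif of MYC at the members bound in both samples, with the E-box in capitals, on the gene's strand (GRCh37, the build hg19):
NDUFS1: gacacgctgcgcCACGTGgccccggccccg
ATP5F1: ggcagcaaacccCACGTGgtgcacctctga
NDUFA7: gcggagaggagtCACGTGcttcggggagag
NDUFAF4: cgccggtgttccCACGTGcggcctgaacct
NDUFAF2: gaagtgaaggagCACGTGggcacggaccaa

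They lie at chr2:207024829-207024858, chr1:111991851-111991880, chr19:8386362-8386391, chr6:97345700-97345729 and chr5:60241134-60241163, with the E-box starting 603 bp upstream, 120 bp downstream, 99 bp upstream, 50 bp downstream and 190 bp downstream of the member's start. Over the single samples, 6 of 8 member peaks of EGFP replicate 1 (75%) held a CACGTG within 100 bp of the summit, against 51.3% of all its peaks. In EGFP replicate 2, 7 of 40 did (17.5%, against 26.1%). The 40 are counted by member, and COX4I1 and COX4NB shared 1 peak (summit at chr16:85833200).

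**Figure D5:**
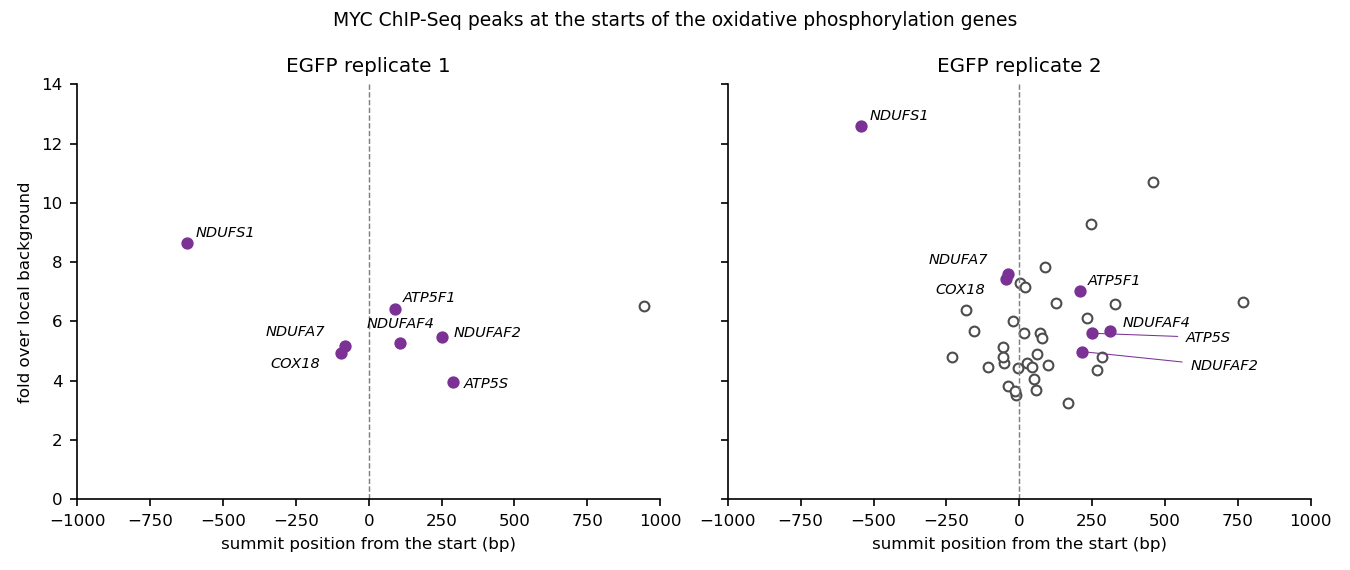
Fold of MYC ChIP-Seq peaks over local background (vertical axis) against the position of the summit from the member's start (horizontal axis, bp, downstream positive) in both EGFP samples. Filled circles are the 7 members with a peak in both samples, led by NDUFS1 at 8.64 and 12.6, and open circles are members with a peak in 1 sample.

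Peaks of EGFP replicate 2 at members had folds of 3.25 to 12.6 (median 5.52), and the median distance of their summits from the start was 83 bp. The highest apart from NDUFS1 was at NDUFB2 (10.7). Members with such a peak were lower with SNF5 in 13 of 39 cases (33.3%), and members without it in 7 of 49 (14.3%). Over all genes tested these shares were 29.1% and 11.1%, so the split by peak was alike among members and in the whole table. With OmoMYC 5 of 39 members with a peak (12.8%) and 1 of 49 without it (2.04%) were lower, against 9.6% and 2.21% of all genes. Of the 7 members with a peak in both samples, only NDUFAF4 was lower with SNF5 and none with OmoMYC, with medians of -0.02 and -0.06.

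ATAC-Seq peaks (hg38) within 1 kb of the RefSeq start were found in all 9 samples at 34 of the 81 matched members (42%), against 27.3% of 15436 genes. These 15436 genes were not limited to transcribed ones. At 7 members no sample had a peak (8.64%, against 41.1%). Mean EGFP gene body density there was 6.03 at NDUFAF3, 5.41 at NDUFC1, 4.01 at COX7A2 and 2.47 at COX6B1. It was 1.21 at NDUFA5, 0.505 at NDUFA4L2 and 0.00121 at COX7B2. A missing peak is therefore not read as absent transcription. The share of members with a peak ran from 53.1% to 90.1% across samples and went with the number of peaks in the list, from 7260 to 33596. A peak in all 3 SNF5 and no EGFP sample was found at NDUFA9 and NDUFA13 (2.47%, against 1.83% of genes), and the opposite at 0 members and 0 of all genes. UQCR11 had a peak in all EGFP and no OmoMYC sample (1.23% of members, against 4 genes or 0.0259%), and the opposite was found at 0 members and 6 genes. A missing peak in lists of unlike size is not a measured loss of signal. In the paper's own test of ATAC-Seq peaks, OmoMYC changed no open site significantly.

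Genes outside the symbol rule that serve the same machinery were read from 2 lists. Among assembly and stability factors, 32 of 37 were tested, and with SNF5 9 were lower and 1 higher (median -0.18), against 16.5% and 17.6% of all genes (median -0.03). The lowest were CHCHD8, now COA4, a complex IV assembly factor (-0.66 ± 0.13), ATPAF2, which assembles the F1 part of ATP synthase (-0.40 ± 0.10), and C1orf31, now COA6 (-0.35 ± 0.11). HIGD1A, a hypoxia-inducible complex IV regulator, was the one that rose (0.41 ± 0.06, adjusted p = 0.00102, edgeR). With OmoMYC 0 of the 32 passed by edgeR, against 4.42% of all genes lower and 4.1% higher, with a median of -0.10. At an unadjusted p under 0.05, 6 were lower and 2 higher by edgeR, against 4389 of 15060 genes in either direction. Of 17 tested genes of mitochondrial biogenesis and mitochondrial DNA expression, 8 were lower and 0 higher with SNF5 at an unadjusted p under 0.05. Over all genes, 6827 of 15060 passed that edgeR threshold in either direction. At an adjusted p under 0.05, 6 of the 17 were lower with SNF5 and 0 higher (median -0.16), against the same 16.5% and 17.6%. They included C10orf2, the mitochondrial helicase Twinkle (-0.53 ± 0.09), the coactivators PPRC1 (-0.34 ± 0.05) and PPARGC1B (-0.28 ± 0.05), the mitochondrial RNA polymerase POLRMT (-0.31 ± 0.08), TFAM (-0.20 ± 0.07) and the DNA polymerase POLG (-0.18 ± 0.06). With OmoMYC 4 of the 17 were lower, against 4.42% of all genes: C10orf2 (-0.53 ± 0.09), SLIRP (-0.41 ± 0.09), LRPPRC (-0.30 ± 0.08) and PPARGC1B (-0.23 ± 0.05). Both lists were read in the main fit only. Without the replicate block, 7 of 15060 genes of the table were called lower with SNF5 and 0 with OmoMYC. With OmoMYC, 0 genes were called lower without replicate 1 or without replicate 2 either, so its 4 calls were lost in these fits.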

How the data were processed

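Processed files were used as deposited. The authors trimmed PRO-Seq reads with Cutadapt, aligned them to hg19 with Bowtie2 and used NRSA to count them per transcript. Raw counts were deposited separately for promoter-proximal and gene body regions. Its density signal, also deposited, served only to obtain gene body lengths. Reads of low mapping quality were removed by the authors, so genes with close copies, such as CYCS and SDHA, are counted with less certainty. MACS2 peak lists were deposited with positions, the fold ratio to background, and significance as −log10 values of p and of q. MYC lists are in hg19 and ATAC-Seq lists in hg38, and no coordinate was converted.

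For each of 20367 symbols the transcript with most reads was kept. Genes with a mean of at least 10 reads were fitted with edgeR 4.0.16 (R 4.3.3), with offsets from gene body totals and RLE factors, and the replicate number as a block, since the study's own analysis accounted for batch. Same-numbered samples deviated together (correlation of 0.753 to 0.882 over gene bodies, -0.668 to 0.126 for other numbers). The study describes independent PRO-Seq experiments, and the labels give replicate numbers only. Promoter sequences were those of RefSeq and gene starts those of the table. On simulated data with 200 genes changed 2-fold, 76.5% of them were recovered for gene bodies (7.27% of calls false) and 42.5% for promoter-proximal windows (6.59% false), both for SNF5 against EGFP. All 200 were raised, in counts drawn from the same kind of model that was then fitted. Member gene body changes with SNF5 ran from -0.63 to 0.21 in log2, and the recovery of changes of that size was not tested.

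Members, gene lists and tests were chosen with earlier results of these data known. Named members were those called in gene bodies (the 10 with the smallest adjusted p per construct where over 20 were called), the 3 highest and 3 lowest of each test, those with a MYC peak in both EGFP samples and the 5 densest and 5 least dense subunits. The others called are named as well, chosen after their values were seen. Alternatives were TMM factors, library totals alone, a minimum mean of 1 read, no block, fits on 2 constructs, leaving out each replicate, DESeq2 1.42.0, scaling by promoter-proximal counts, and for MYC peaks 500 bp, −log10 q of at least 5, a reciprocal overlap of 50% and GENCODE starts. IgG samples were not used here.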

Additional observations from a re-analysis of the deposited data

How the results depend on the processing

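Numbers of called members depended on the block and on the replicates. Without the replicate block, 0 members were called in each of the 3 gene body comparisons (22 with SNF5, 7 with OmoMYC and 7 for SNF5 against OmoMYC with it), 0 in promoter-proximal windows with SNF5 and 0 for the pausing index with either construct. Over all genes that fit called 1.49%, 0.00664% and 0.498% in the gene body comparisons, and 0 in promoter-proximal windows or for the pausing index. With 2 constructs only in the fit, the counts were 14 for gene bodies with SNF5, 3 for SNF5 against OmoMYC, 1 for promoter-proximal windows with each construct and 1 for the pausing index with SNF5. In the same order, the shares of all genes were 24.5%, 16.6%, 3.64% with SNF5 and 2.13% with OmoMYC, and 1.53%. DESeq2 called 14 in gene bodies with OmoMYC (13.8% of all genes) and 0 for the pausing index (0.904% with SNF5 and 0.618% with OmoMYC). Gene body totals alone gave 11 for SNF5 against OmoMYC, when 22.1% of all genes were called. RLE factors from promoter-proximal counts gave 6 and 2 in promoter-proximal windows with SNF5 and OmoMYC, against 8.83% and 2.21% of all genes. For the pausing index, an alternative chosen after seeing the data, they gave 7 and 2, against 7.32% and 1.75% of all genes. A minimum mean of 1 read gave 2 for the pausing index with OmoMYC, against 1.89% of all genes.

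With 1 replicate left out, the counts ranged from 0 to 53 for gene bodies with SNF5, from 0 to 43 with OmoMYC and from 1 to 16 for SNF5 against OmoMYC, from 0 to 6 and from 0 to 5 for promoter-proximal windows with SNF5 and OmoMYC, and from 0 to 6 and from 0 to 11 for the pausing index. Over all genes the shares called ranged from 9.57% to 56.8%, from 0.0132% to 45% and from 5.01% to 41.7% in the gene body comparisons. They ranged from 0.409% to 8.69% and from 0.0273% to 8.03% in promoter-proximal windows. For the pausing index they ranged from 0.0821% to 5.43% and from 0 to 8.71%. In the gene body comparisons the highest count came without replicate 3. The 7 members with a MYC peak in both EGFP samples became 4 at a −log10 q of at least 5 and 2 with a reciprocal overlap of 50%, and 8 or 40 when a peak in replicate 1 or in replicate 2 was enough. Other genes were not counted at the stricter q or overlap, so no share can be set beside the 4 and the 2. Of 168 values of named members with 1 replicate left out, 58 lost significance, 11 gained it and 1 changed direction: the pausing index of NDUFA12 with OmoMYC was -0.35 with all samples, ranged from -0.58 to 0.03, and was 0.03 without replicate 3. Of 360 values under other settings 0 changed direction, 51 lost significance and 11 gained it. The cause of these changes was not tested. Promoter-proximal depth, which bears on the pausing index, was lowest in replicate 1.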
